A study of Homo sapiens with 8 samples.

Results

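The amino acid transporter genes described here were the SLC1, SLC3, SLC7, SLC36, SLC38 and SLC43 family members listed by symbol in a table of RNA levels, 40 of its 26372 genes. Genes were taken by family name and not by measured value, but the families were chosen with earlier results of these data known. The cells were BE(2)-M17, a long-established human line grown from a neuroblastoma, a tumour of the sympathetic nervous system. Of the 8 libraries 4 were untreated, and 4 came from a 24 h treatment with 10 ng/ml of the T cell cytokine interferon-γ (IFN-γ). All 8 libraries came from the same unmodified line, and no vehicle control is named in the labels. The series title concerns the long non-coding RNA GOMAFU and the interferon response of neuronal cells, and the comparison here was IFN-γ against untreated.

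Amino acids cross membranes mainly through carrier proteins, and most members of a family move related substrates. SLC1 carriers take up glutamate or exchange small neutral amino acids, and the cationic members of SLC7 carry arginine, lysine and ornithine. Most other SLC7 proteins are light chains that reach the surface bound to an SLC3 heavy chain. SLC38 carriers bring in glutamine and other neutral amino acids with sodium, and some SLC36 carriers use protons, often at the lysosome. Most SLC43 carriers let large neutral amino acids pass down their gradient. In neurons and neuroblastoma cells these proteins set the supply of glutamine and glutamate for transmitters, of arginine for nitric oxide and polyamines, and of leucine for the growth kinase mTORC1.

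Levels are FPKM, fragments per kilobase of transcript scaled for library size, as the authors deposited them. Differences were tested by limma on log2(FPKM + 0.1), a scale that understates the change of low genes, over the 13598 genes whose mean reached 0.5 FPKM, and a gene was called at an adjusted p under 0.05. The labels name no separate cultures, so each p-value speaks for the spread between these libraries only. In bulk RNA, fewer cells that express a gene and less of its RNA per cell cannot be told apart. Steps between low values were read as if FPKM were scaled to the mapped total, which the sources used here do not state. They put the depth at 14.0 to 20.3 M fragments per library (M for mega), the highest in IFN-γ replicate 4. That library stood apart in its group: of the 21 tested transporter genes it was the lowest of the 4 IFN-γ libraries in 12 and the highest in 4. Among the genes expected to respond, IRF1 went from 0.584 ± 0.0404 to 125 ± 2.14 FPKM and GBP1 from 0.0240 ± 0.0106 to 546 ± 15.5 FPKM (SD, n = 4), with no overlap between groups. Of 12 noradrenergic neuroblastoma markers 11 were tested, with HAND2 at 307 ± 2.62 and 297 ± 4.82 FPKM. The 12 leukocyte markers summed to 1.06 to 1.38 FPKM untreated and 1.28 to 1.74 FPKM with IFN-γ, and 5 of them were at 0 in every library. The 9 fibroblast and endothelium markers summed to 157 to 167 FPKM and 161 to 219 FPKM, nearly all of it DCN and LUM, and their part in the results below was not tested. The 6 epithelium markers summed to 2.73 to 3.29 FPKM and 2.71 to 3.65 FPKM.

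With IFN-γ, 6 of the 21 tested transporter genes were called. SLC7A2, SLC7A14, SLC1A3 and SLC38A6 rose, and SLC7A1 and SLC1A4 fell. These are 28.6% of the tested transporter genes, beside 22.3% of all tested genes (13.3% called higher and 9.05% called lower), so the families as a whole were near the background. Their median log2 change was -0.02, and that of all tested genes was -0.0047. In 7 of the 21 the 4 treated values lay wholly above (3 genes) or wholly below (4 genes) the 4 untreated values, a pattern shown by 28.2% of all tested genes. Without IFN-γ replicate 4 the same 6 genes were called, 4 higher and 2 lower, while the share of all tested genes called rose to 28.4%. The counts were less steady to the loss of other libraries: without untreated replicate 2 only 2 genes were called higher, and without any 1 untreated library or IFN-γ replicate 2 only 1 was called lower.

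The split of directions depends on the scaling. The small nucleolar RNA SNORD3A made up 53.2%, 57.9%, 5.97% and 55.7% of all FPKM in the untreated libraries and 0% in the treated ones. Rescaling every library to TPM, a fixed sum, raised the median log2 change of all genes by 0.79, and under it 16 transporter genes were called higher and 0 lower. With the small RNA genes left out before that rescaling, 2 were called higher and 2 lower. The 2 lower were again SLC7A1 and SLC1A4. The deposited FPKM scale is used below.

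**Figure D1:**
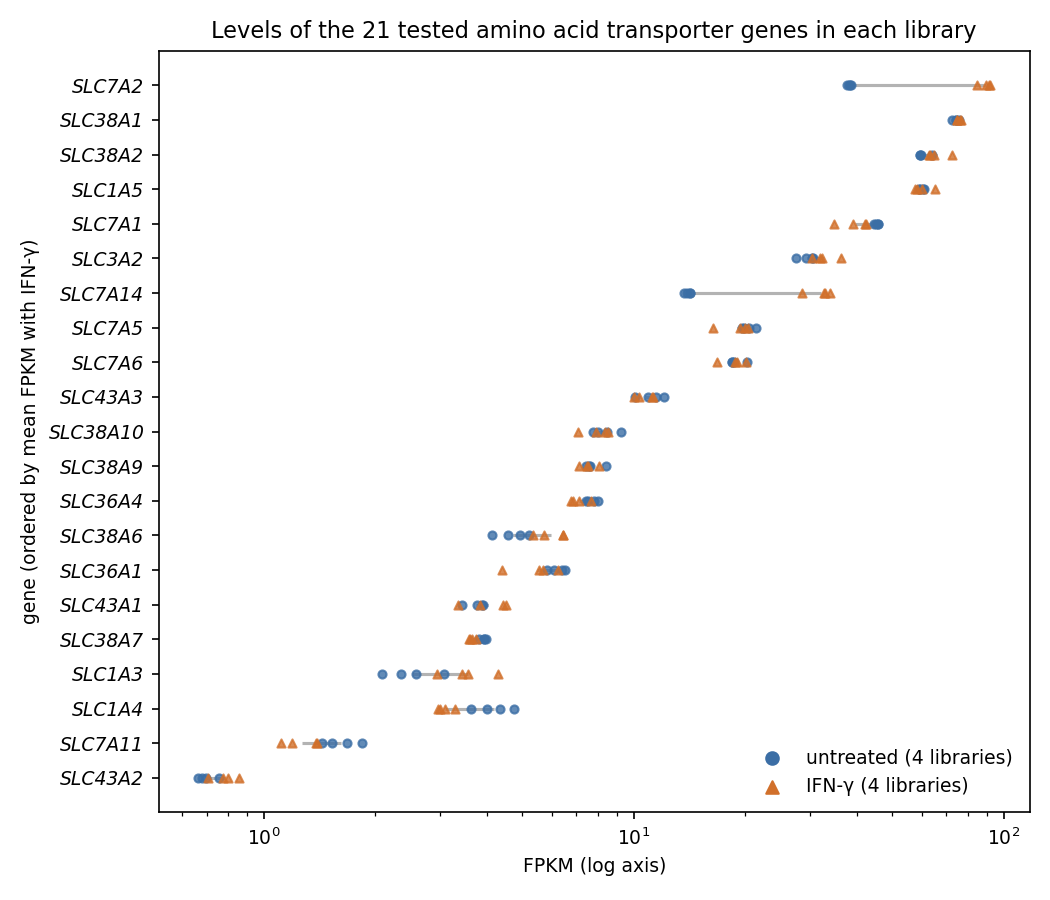
FPKM (log axis) of the 21 tested transporter genes, ordered from top to bottom by level with IFN-γ; circles are the 4 untreated and triangles the 4 IFN-γ libraries, and lines join the group means. SLC7A2 moves from 38.2 to 89.3 FPKM to become the highest of the families.

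The families spanned a wide range of levels. In untreated cells the 5 highest by FPKM, which is corrected for length, were SLC38A1 (74.1 ± 1.25), SLC38A2 (60.6 ± 2.29), SLC1A5 (59.99 ± 0.957), SLC7A1 (45.3 ± 0.584) and SLC7A2 (38.2 ± 0.447; SD, n = 4 each). SLC38A2 and SLC1A5 did not differ beyond their spread, with ranges of 59.2 to 64.0 and 59.0 to 61.0 FPKM. With IFN-γ SLC7A2 moved from the fifth place to the first, and its lowest treated library, at 84.8 FPKM, was above the highest of SLC38A1, at 76.7 FPKM. Summed over all 40 genes the level was 425 ± 2.99 FPKM untreated and 496 ± 7.47 FPKM with IFN-γ. The 5 SLC7 genes of cationic carriers and their relatives held 23.0% ± 0.111 of that sum untreated and 32.5% ± 1.29 with IFN-γ. SLC7A2 alone went from 8.99% ± 0.0696 to 18.0% ± 0.391 of the same sum. At the other end, 19 of the 40 were under the 0.5 FPKM limit and were not tested, 4 of them (SLC1A6, SLC7A3, SLC7A13 and SLC38A8) listed at 0 in all 8 libraries. All 21 tested genes had a mean above the limit in both groups.

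Of the 5 cationic carriers and their relatives 3 were tested, the carriers SLC7A2 and SLC7A1 and the relative SLC7A14. All 3 were called with no overlap between the groups, 2 higher and 1 lower on the FPKM scale. Of all tested genes 22.3% were called and 28.2% had groups that did not overlap, shares that apply to the family counts below too. SLC7A2 encodes CAT-2, a plasma membrane carrier of arginine, lysine and ornithine whose splice forms differ in affinity and are not separated by these values. It measured 38.7, 38.2, 38.4 and 37.6 FPKM in the untreated libraries. With IFN-γ it measured 89.5, 91.2, 91.9 and 84.8 FPKM. Both groups were tight, and no library lay between 38.7 and 84.8 FPKM. The mean went from 38.2 ± 0.447 to 89.3 ± 3.19 FPKM, a log2 change of 1.22 (95% interval 1.14 to 1.30, SE 0.0363, limma adjusted p = 2.21e-09). That change was larger in size than those of 97.3% of the tested genes, and the gene was called under all 19 alternative settings, with log2 changes of 1.10 to 2.03.

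SLC7A14 encodes a relative of the cationic carriers found at lysosomes in neurons and the retina. It measured 13.7, 14.2, 13.9 and 14.1 FPKM untreated, and 33.9, 32.6, 32.9 and 28.6 FPKM with IFN-γ. The groups were well apart, and IFN-γ replicate 4 was the lowest of the treated libraries, as it was for SLC7A2. The mean went from 14.0 ± 0.248 to 32.0 ± 2.33 FPKM, a log2 change of 1.18 (95% interval 1.06 to 1.31, SE 0.0543, limma adjusted p = 8.68e-08). It too was called under all 19 alternatives, with log2 changes of 1.10 to 1.99, and it moved from the ninth to the seventh place in the families. Ordered from the largest rise to the largest fall, SLC7A2 and SLC7A14 took places 331 and 341 among the 13598 tested genes.

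SLC7A1 encodes CAT-1, the arginine carrier that most cells use, and it moved the other way. It measured 45.8, 45.3, 45.7 and 44.5 FPKM untreated. With IFN-γ it measured 42.1, 39.2, 42.5 and 34.8 FPKM. No value of the groups overlapped, but the treated libraries were much more spread. The mean went from 45.3 ± 0.584 to 39.7 ± 3.52 FPKM, a log2 change of -0.20 (95% interval -0.33 to -0.06, SE 0.0598, limma adjusted p = 0.0405), which became 0.61 under rescaling to TPM. Without IFN-γ replicate 4 the change was -0.14 with an adjusted p of 0.0120. The call was lost without untreated replicate 1 (adjusted p = 0.0966), 2 (0.0893), 3 (0.0943) or 4 (0.0759) and without IFN-γ replicate 2 (0.0839), and its adjusted p ran from 0.0120 to 0.0966 over the 19 alternatives. In untreated cells SLC7A1 was above SLC7A2 in every library. With IFN-γ it was below SLC7A2 in every library, and its share of the families' sum went from 10.7% ± 0.0822 to 7.99% ± 0.603. The other cationic carrier, CAT-3 (SLC7A3), was listed at 0, and SLC7A4, a relative with no settled transport role, was at most 0.349 FPKM.

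**Figure D2:**
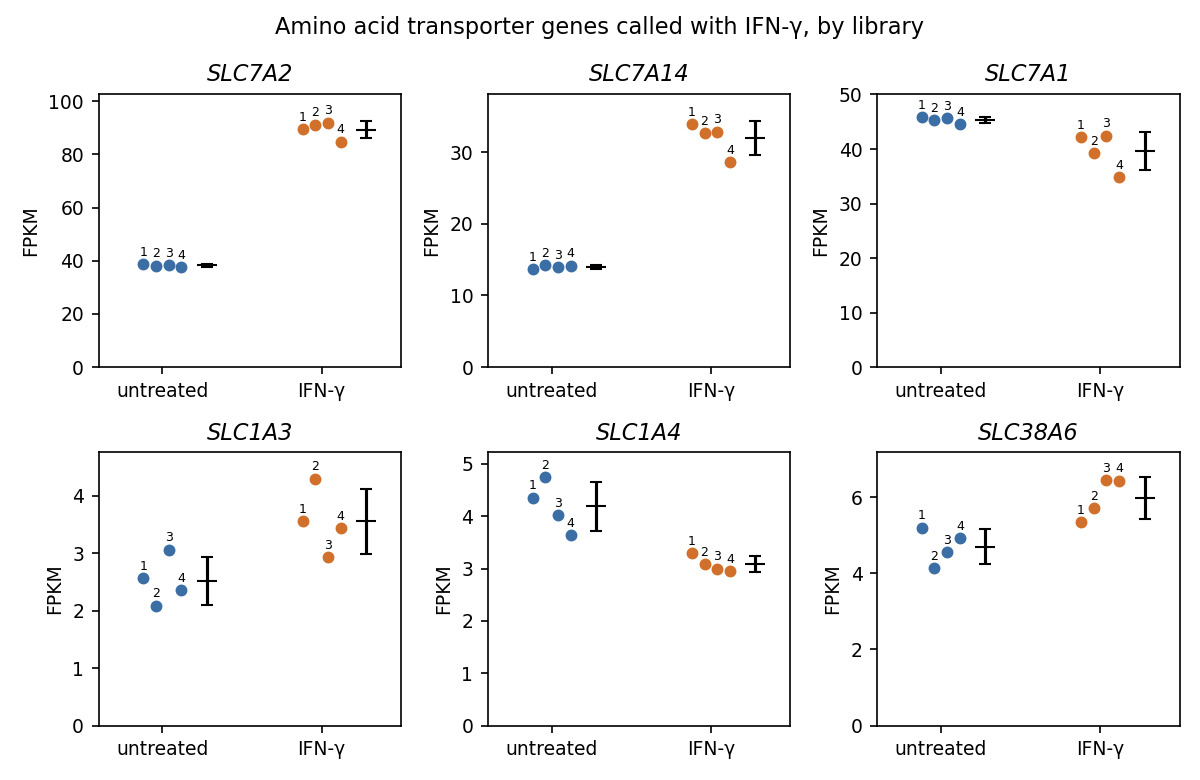
FPKM of the 6 called genes in each library, with blue points for the 4 untreated and orange points for the 4 IFN-γ libraries, numbered by replicate, and black bars for the mean and SD. The groups are wholly apart for SLC7A2, SLC7A14, SLC7A1, SLC1A4 and SLC38A6 and overlap for SLC1A3. The lower SLC7A1 and SLC1A4 seen here are on the FPKM scale and turn to log2 changes of 0.61 and 0.36 under TPM. With the small RNA genes left out of that rescaling both were called lower.

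The glutamate and neutral amino acid carriers of SLC1 held 7 genes, of which 3 were tested, and 1 rose, 1 fell on the FPKM scale and 1 was not called. SLC1A3 encodes EAAT1 (GLAST), a sodium-coupled glutamate carrier best known from astrocytes. It measured 2.57, 2.09, 3.07 and 2.35 FPKM untreated, and 3.56, 4.30, 2.93 and 3.44 FPKM with IFN-γ. The groups overlapped, since the lowest treated library was under the highest untreated one. The mean went from 2.52 ± 0.415 to 3.56 ± 0.567 FPKM, a log2 change of 0.48 (95% interval 0.17 to 0.79, SE 0.140, limma adjusted p = 0.0338). This call rested on few fragments, about 160 to 291 a library, and was lost without untreated replicate 1 (adjusted p = 0.0689), 2 (0.0925) or 4 (0.0854) and without IFN-γ replicate 1 (0.0704) or 2 (0.0835). Its adjusted p ran from 0.0023 to 0.0925 over the 19 alternatives.

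SLC1A4 encodes ASCT1, an exchanger of serine, alanine and other small neutral amino acids. It measured 4.35, 4.75, 4.02 and 3.64 FPKM untreated, and 3.30, 3.08, 3.00 and 2.95 FPKM with IFN-γ. The groups did not overlap, and here the treated libraries were the tighter ones. The mean went from 4.19 ± 0.474 to 3.08 ± 0.152 FPKM, a log2 change of -0.43 (95% interval -0.63 to -0.22, SE 0.0912, limma adjusted p = 0.0076), and it was 0.36 (adjusted p = 0.293) under rescaling to TPM. It was called under the other 18 alternatives. Its close relative SLC1A5 (ASCT2), the glutamine exchanger many tumours rely on, was at 59.99 ± 0.957 and 60.3 ± 3.57 FPKM, with an interval of the log2 change from -0.09 to 0.11 (adjusted p = 0.952). The neuronal glutamate carrier SLC1A1 (EAAT3) was at most 0.161 FPKM, and SLC1A2 (EAAT2) and SLC1A7 (EAAT5) at most 0.0289 and 0.0739 FPKM. Of the EAAT glutamate carriers SLC1A3 was thus the one with a level above the limit for testing.

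Promoter sequence is shown for some members that were called, and for others that hold the same motif. The letters near their RefSeq start sites can so be read beside the changes. The windows of the called SLC1A4 and SLC38A6 are not printed. RefSeq promoter windows on GRCh38.p14, from 250 bases before to 50 after a start, were at hand for 31 of the 40 genes, and SLC7A2 was not among them. In capitals are matches to TTCNNNGAA, the γ-activated site of interferon-γ target genes, which reads the same on both strands, and to TGATGNAA, the core of the amino acid response element bound by ATF4, searched on both strands. The 250 bases before the start follow for SLC7A14 (chr3:170586076-170586325, minus strand), SLC7A1 (chr13:29595689-29595938, minus strand) and SLC1A3 (chr5:36596338-36596587, plus strand), each 5′ to 3′ with the start at the right end.
SLC7A14: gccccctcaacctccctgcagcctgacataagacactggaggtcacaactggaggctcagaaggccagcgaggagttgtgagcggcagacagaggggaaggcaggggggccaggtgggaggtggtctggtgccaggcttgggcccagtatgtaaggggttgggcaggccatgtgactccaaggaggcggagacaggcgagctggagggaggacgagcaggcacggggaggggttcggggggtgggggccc
SLC7A1: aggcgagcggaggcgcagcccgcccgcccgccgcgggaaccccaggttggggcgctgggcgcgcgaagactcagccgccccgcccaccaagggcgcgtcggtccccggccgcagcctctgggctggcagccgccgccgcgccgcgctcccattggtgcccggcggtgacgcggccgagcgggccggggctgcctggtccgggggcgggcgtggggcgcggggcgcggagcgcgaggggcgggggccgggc
SLC1A3: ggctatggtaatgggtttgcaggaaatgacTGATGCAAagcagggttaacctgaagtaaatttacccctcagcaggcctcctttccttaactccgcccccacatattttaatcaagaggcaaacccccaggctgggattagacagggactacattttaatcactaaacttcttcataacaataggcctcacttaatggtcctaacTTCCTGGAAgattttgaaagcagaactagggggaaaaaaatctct
For comparison, 39 bases around the γ-activated site match are given for SLC3A2 (chr11:62881600-62881638, plus strand) and SLC38A1 (chr12:46266678-46266716, minus strand), neither of them called.
SLC3A2: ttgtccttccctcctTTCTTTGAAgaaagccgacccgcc
SLC38A1: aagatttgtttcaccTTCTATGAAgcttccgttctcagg

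TTCNNNGAA was present in the windows of 3 of the 31 genes (SLC1A3 at -45 to -37, SLC3A2 at -84 to -76 and SLC38A1 at -185 to -177) and in 7.88% of all 27305 promoter windows. TGATGNAA was present in 4 of the 31 (SLC1A3, SLC3A2, SLC38A1 and SLC7A1) and in 3.67% of all windows. Its match in SLC1A3 lies at -220 to -213, and that in SLC7A1 at 7 to 14 after the start, outside the bases printed. The core of the interferon-stimulated response element (GAAA, any 2 bases and GAAA again, on either strand) was present in 2 of the 31 (SLC38A4 and SLC7A7, both too low to be tested) and in 3.65% of all windows. None of these letter patterns was in the windows of SLC7A14, SLC38A6 or SLC1A4. The windows also differ in composition: the bases before the start are 84.4% G or C with 43 CpG pairs in SLC7A1, 66.8% with 7 in SLC7A14 and 43.2% with 1 in SLC1A3, beside medians of 58.0% and 11 over all windows. For 25 of the 31 the start fell in a GENCODE 29 transcript of the gene, and SLC1A3 and SLC38A1 were among the others. The bases printed for SLC1A3 end at 36596587, while GENCODE 29 starts this plus-strand gene at 36606355. Those printed for SLC38A1 end at 46266716, inside this minus-strand gene, which GENCODE 29 starts at 46270017. Match positions thus count from RefSeq starts, which for these 2 genes are not the GENCODE gene starts. A match is a run of letters and not evidence of binding.

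The 6 light chains that pair with the heavy chain SLC3A2 included 3 tested genes, and neither SLC3A2 nor any of these 3 was called. SLC3A2 (CD98hc, also 4F2hc), which carries its light chains to the surface, was at 30.4, 30.4, 29.2 and 27.5 FPKM untreated and 32.3, 31.8, 30.3 and 36.4 FPKM with IFN-γ. The groups overlapped by 1 treated library, with means of 29.4 ± 1.37 and 32.7 ± 2.60 FPKM (log2 change 0.15, 95% interval 0.02 to 0.29, limma adjusted p = 0.0981). SLC7A5 (LAT1), the leucine and tryptophan exchanger, measured 21.4, 20.4, 19.9 and 19.6 FPKM untreated and 20.3, 19.4, 20.0 and 16.3 FPKM with IFN-γ. Only IFN-γ replicate 4 lay under the untreated range by more than a little, and the means were 20.3 ± 0.801 and 19.0 ± 1.83 FPKM (log2 change -0.10, adjusted p = 0.345). Its pseudogene SLC7A5P2 had the same low library, 5.92 FPKM beside 9.55 to 10.2 FPKM in the other treated libraries. Another, SLC7A5P1, did not, at 4.55, 6.76, 4.22 and 4.33 FPKM in IFN-γ replicates 1 to 4. Reads of SLC7A5 and these pseudogenes can be divided between them. SLC7A6 (y+LAT2), an exchanger of arginine for glutamine, was at 18.9 ± 0.880 and 18.6 ± 1.37 FPKM (adjusted p = 0.813). Of the exon bases of SLC7A6, 44.4% are shared with SLC7A6OS on the opposite strand, where reads of the 2 genes cannot be told apart without strand.

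SLC7A11 (xCT), which brings in cystine in exchange for glutamate and so feeds glutathione synthesis, measured 1.53, 1.44, 1.84 and 1.68 FPKM untreated. With IFN-γ it measured 1.19, 1.38, 1.39 and 1.11 FPKM. Every treated value was under every untreated one, yet the gene did not pass the test (log2 change -0.33, 95% interval -0.61 to -0.05, limma adjusted p = 0.0918). It passed under quantile normalization (0.0331) and without the mean-variance trend (0.0461), and its log2 change was 0.42 under rescaling to TPM. The remaining light chains were low: SLC7A7 (y+LAT1) at most 0.281 FPKM, SLC7A8 (LAT2) at most 0.09995 FPKM and SLC7A10 (Asc-1) at most 0.625 FPKM. The second heavy chain, SLC3A1 (rBAT), was at most 0.0807 FPKM, and its partner in cystine uptake, SLC7A9, at most 0.932 FPKM.

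Because a ratio of 2 genes within a library does not depend on that library's scaling, 3 ratios were compared by an exact two-sided permutation test over the 70 arrangements of the libraries, where 0.0286 is the smallest p possible. SLC7A5 to SLC3A2 was 0.704, 0.673, 0.680 and 0.714 untreated and 0.629, 0.611, 0.660 and 0.449 with IFN-γ. All treated ratios were lower, and that of IFN-γ replicate 4 was the lowest by far. The log2 difference was -0.253 (exact permutation p = 0.0286, adjusted over the 3 ratios 0.0429, n = 4 per group), and without that library it was -0.129 (exact adjusted p = 0.0857). SLC7A11 to SLC3A2 was 0.0502, 0.0474, 0.0631 and 0.0609 untreated and 0.0369, 0.0436, 0.0458 and 0.0305 with IFN-γ. Again all treated ratios were lower, by -0.506 on the log2 scale (exact permutation p = 0.0286, adjusted 0.0429, n = 4 per group), and by -0.392 without IFN-γ replicate 4 (exact adjusted p = 0.0857). Both calls were also lost, with exact adjusted p-values of 0.0857 to 0.129, when any 1 untreated library or IFN-γ replicate 1 was left out. Fewer arrangements remain then, so the p-values move in coarse steps. The log2 differences in those cases were -0.239 to -0.292 (SLC7A5) and -0.440 to -0.578 (SLC7A11), with all treated ratios still lower. SLC38A1 to SLC38A2 was 1.22, 1.25, 1.27 and 1.16 untreated and 1.19, 1.19, 1.18 and 1.05 with IFN-γ, groups that overlap, with a log2 difference of -0.0919 (exact permutation p = 0.114, adjusted 0.114, n = 4 per group).

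**Figure D3:**
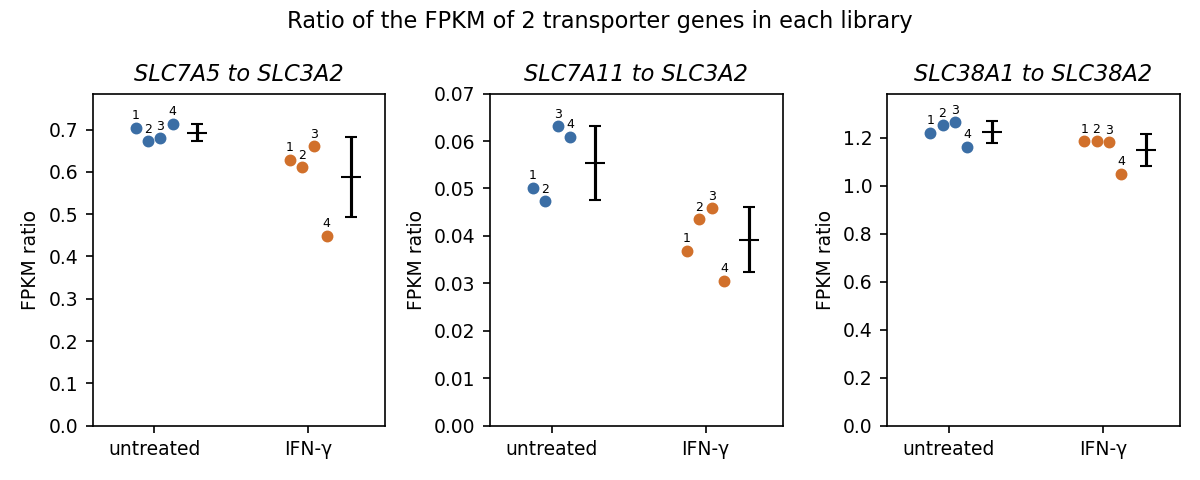
Ratio of the FPKM of 2 genes in each library, with blue points for the 4 untreated and orange points for the 4 IFN-γ libraries, numbered by replicate, and black bars for the mean and SD. Both ratios to SLC3A2 are lower in every treated library, and the lowest point in each of the 3 panels is IFN-γ replicate 4 (0.449, 0.0305 and 1.05).

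Of the 11 sodium-coupled SLC38 carriers 6 were tested, and 1 was called, higher. SLC38A6 (SNAT6), a brain-enriched member whose substrates are less well known, measured 5.20, 4.13, 4.56 and 4.92 FPKM untreated. With IFN-γ it measured 5.34, 5.72, 6.45 and 6.43 FPKM. The groups did not overlap, though the lowest treated library was close to the highest untreated one. The mean went from 4.70 ± 0.463 to 5.98 ± 0.550 FPKM, a log2 change of 0.34 (95% interval 0.14 to 0.55, SE 0.0912, limma adjusted p = 0.0227). The call was lost without untreated replicate 2 (adjusted p = 0.0644) or 3 (0.0611) and without IFN-γ replicate 3 (0.0642), and its adjusted p ran from 0.0049 to 0.0844 over the 19 alternatives. TRMT5, which lies on the opposite strand and shares 245 exon bases (4.76%) with SLC38A6, also rose, from 9.28 ± 0.437 to 10.7 ± 0.594 FPKM (log2 change 0.20, limma adjusted p = 0.0314). Its part in the SLC38A6 result was not tested.

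The most abundant SLC38 genes were not called. SLC38A1 (SNAT1), the neuronal glutamine carrier, was at 74.1 ± 1.25 and 75.5 ± 0.995 FPKM, with an interval of the log2 change from -0.04 to 0.10 (limma adjusted p = 0.588). SLC38A2 (SNAT2), which cells raise when amino acids run short, was at 60.6 ± 2.29 and 65.9 ± 4.49 FPKM (log2 change 0.12, adjusted p = 0.133), and its highest library was IFN-γ replicate 4 at 72.5 FPKM. The lysosomal members were SLC38A7 (SNAT7), a glutamine exporter, and SLC38A9, the arginine sensor of mTORC1. SLC38A7 was at 3.93 ± 0.0730 and 3.65 ± 0.0652 FPKM, groups that did not overlap but did not pass the test (log2 change -0.10, adjusted p = 0.264, and 0.68 under TPM). SLC38A9 was at 7.77 ± 0.435 and 7.54 ± 0.377 FPKM (adjusted p = 0.660), and SLC38A10, a member of less settled function, at 8.36 ± 0.661 and 7.96 ± 0.653 FPKM (adjusted p = 0.560). SLC38A3 (SNAT3) and SLC38A5 (SNAT5), the glutamine carriers of glia and liver, were at most 0.232 and 0.220 FPKM, and SLC38A4 and SLC38A11 at most 0.110 and 0.321 FPKM. SLC38A1, SLC38A2 and SLC38A4 lie in this order on 1 stretch of chromosome 12, between bases 46183063 and 46832408 of GRCh38, yet 2 of them were the highest of all transporter genes in untreated cells and the third was near 0.

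Neither the SLC36 nor the SLC43 family held a called gene. Of 4 SLC36 genes 2 were tested: SLC36A1 (PAT1), the lysosomal exporter of small amino acids, at 6.20 ± 0.319 and 5.47 ± 0.770 FPKM (log2 change -0.19, 95% interval -0.41 to 0.04, limma adjusted p = 0.217, and 0.61 under TPM), and SLC36A4 (PAT4) at 7.69 ± 0.272 and 7.11 ± 0.414 FPKM (adjusted p = 0.199). SLC36A2 and SLC36A3, which lie near SLC36A1 on chromosome 5, were at most 0.0350 and 0.0169 FPKM. All 3 SLC43 genes were tested. SLC43A3, a purine base carrier despite its family, was the highest at 11.1 ± 0.848 and 10.7 ± 0.624 FPKM (adjusted p = 0.620). SLC43A1 (LAT3) was at 3.74 ± 0.224 and 4.04 ± 0.551 FPKM (adjusted p = 0.549) and SLC43A2 (LAT4) at 0.701 ± 0.0403 and 0.784 ± 0.0634 FPKM (adjusted p = 0.530). The interval for SLC43A2 was wide, -0.18 to 0.46 on the log2 scale, with about 88 to 119 fragments a library behind it.

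**Figure D4:**
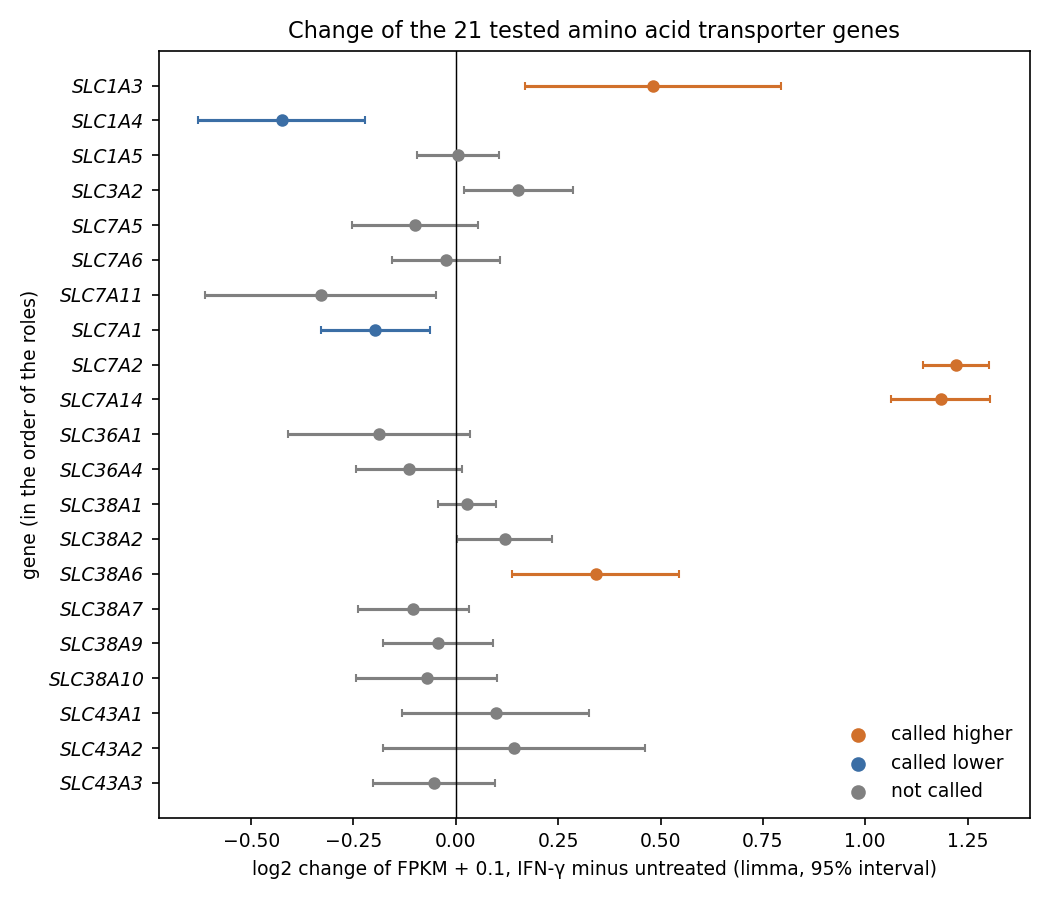
Log2 change of FPKM + 0.1 (IFN-γ minus untreated) of the 21 tested transporter genes by family role, with the 95% interval of limma. SLC7A2 at 1.22 and SLC7A14 at 1.18 stand far to the right and the other 19 lie between -0.43 and 0.48. The scale is the deposited FPKM, and the genes called lower have log2 changes of 0.36 (SLC1A4) and 0.61 (SLC7A1) under TPM. With the small RNA genes left out of that rescaling both were called lower.

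SLC7A2 lies on chromosome 8 at 17497088 to 17570573 (plus strand) and SLC7A14 on chromosome 3 at 170459584 to 170586074 (minus strand), with positions from GENCODE 29 on GRCh38. SLC7A1 lies on chromosome 13 at 29509410 to 29595688 (minus strand), SLC1A3 on chromosome 5 at 36606355 to 36688334 (plus strand), SLC1A4 on chromosome 2 at 64988477 to 65023865 (plus strand) and SLC38A6 on chromosome 14 at 60981114 to 61083733 (plus strand). The 6 called genes are thus on 6 chromosomes. Depth differed greatly between them: about 4679 to 13160 fragments a library stood behind SLC7A2 and 2241 to 6264 behind SLC7A14, but 249 to 525 behind SLC1A4 and 205 to 364 behind SLC38A6.

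Genes that use the arginine carried by CAT proteins were read from the same fit. In the list of glutamine, glutamate and arginine enzymes 3 of 16 tested genes rose and 3 fell, with a median log2 change of -0.01. The 37.5% called stands beside 22.3% of all tested genes, a share that applies to the lists below too. ASS1, the argininosuccinate synthase that remakes arginine from citrulline, measured 36.2, 34.2, 35.1 and 34.3 FPKM untreated and 352, 349, 354 and 410 FPKM with IFN-γ. The groups were far apart, with a log2 change of 3.38 (SE 0.0552, limma adjusted p = 2.12e-11). ARG2, the mitochondrial arginase, fell from 5.80 ± 0.0572 to 4.16 ± 0.402 FPKM (log2 change -0.47, adjusted p = 0.0012). ASL, the lyase that follows ASS1, fell from 12.8 ± 0.614 to 9.87 ± 0.772 FPKM (log2 change -0.38, adjusted p = 0.0019). The mitochondrial ornithine carrier SLC25A15 fell from 12.3 ± 0.144 to 10.0 ± 0.961 FPKM (adjusted p = 0.0105) and the basic amino acid carrier SLC25A29 from 7.14 ± 0.890 to 5.69 ± 0.370 FPKM (adjusted p = 0.0316), a call that was lost when any of 4 libraries was left out (untreated replicates 1 and 3, 0.0854 and 0.0908, and IFN-γ replicates 1 and 2, 0.0580 and 0.0786). ASL, SLC25A15 and SLC25A29 were chosen for mention after their values were seen, and these 3 and ARG2 had positive log2 changes, 0.32 to 0.50, under rescaling to TPM. The nitric oxide synthases were too low to test, with NOS1 at most 0.0537, NOS2 at most 0.165 and NOS3 at most 0.177 FPKM, and so was ARG1 at most 0.318 FPKM.

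Among amino acid carriers of other families 3 of 18 tested genes rose and 2 fell (27.8% called), with a median log2 change of -0.02. SLC15A3, a lysosomal carrier of histidine and small peptides, measured 0.0980, 0.0831, 0.0657 and 0.0979 FPKM untreated and 5.56, 5.02, 5.89 and 5.45 FPKM with IFN-γ. It passed the filter through its treated libraries, and its untreated level is near that of a single fragment per kilobase (0.0492 to 0.0716 FPKM). SLC25A22, a mitochondrial glutamate carrier, rose from 4.26 ± 0.272 to 8.41 ± 0.541 FPKM (log2 change 0.96, limma adjusted p = 3.37e-06). MFSD12, a lysosomal cysteine importer, rose from 7.63 ± 0.586 to 12.5 ± 0.833 FPKM (log2 change 0.71, adjusted p = 4.28e-05).

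Cystine enters through SLC7A11. Of 14 tested genes of glutathione and cysteine use 3 rose and 2 fell (35.7% called), with a median log2 change of -0.08. GCLM, the modifier subunit of the first enzyme of glutathione synthesis, rose from 6.87 ± 0.638 to 10.4 ± 0.164 FPKM (log2 change 0.59, limma adjusted p = 0.000117). KEAP1, which holds back the antioxidant factor NRF2, rose from 20.6 ± 1.03 to 26.8 ± 2.09 FPKM (log2 change 0.38, adjusted p = 0.0014). CTH, which makes cysteine from cystathionine, fell from 3.43 ± 0.256 to 2.47 ± 0.431 FPKM (log2 change -0.47, adjusted p = 0.0204, and 0.31 under TPM), which was not called without untreated replicates 1 or 4 (0.0611 and 0.0620) or IFN-γ replicates 1 or 2 (0.0502 and 0.0547).

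Tryptophan and the branched-chain amino acids enter through LAT1. In the list of genes that use them 3 of 14 tested genes rose and 4 fell (50% called). The median log2 change was -0.05. IDO1, which opens the tryptophan ring, was at 0.319 ± 0.185 FPKM untreated and 87.5 ± 6.94 FPKM with IFN-γ, and it passed the filter through its treated libraries. WARS, the tryptophan tRNA synthetase, rose from 24.3 ± 0.490 to 722 ± 14.8 FPKM (log2 change 4.89, limma adjusted p = 6.89e-14). BCKDHB, a subunit of the branched-chain keto acid dehydrogenase, fell from 11.5 ± 0.690 to 8.78 ± 0.824 FPKM (log2 change -0.39, adjusted p = 0.0041, and 0.41 under TPM).

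The amino acid starvation response, which raises several of these carriers through ATF4, had 2 of 26 tested genes higher and 5 lower (26.9% called). The median log2 change was -0.04. CEBPB, a factor of that pathway and of inflammation, rose from 14.1 ± 1.43 to 25.2 ± 2.38 FPKM (log2 change 0.83, limma adjusted p = 4.47e-05). DDIT3 (CHOP) was at 6.90 ± 0.719 and 8.60 ± 0.932 FPKM with overlapping groups (adjusted p = 0.0393), a call lost under 10 of 19 alternatives, among them the loss of untreated replicate 1 (0.0915), 2 (0.0880) or 3 (0.107) or of IFN-γ replicate 1 (0.0979), 2 (0.0616) or 4 (0.0664). PSPH, the last step of serine synthesis, was at 7.38 ± 0.733 and 6.09 ± 0.421 FPKM (adjusted p = 0.0383, log2 change 0.52 under TPM), which was not called without untreated replicates 2, 3 or 4 (0.0877, 0.0657 and 0.0969) or IFN-γ replicates 2 or 3 (0.0772 and 0.0965). Of 34 tested genes of amino acid sensing by mTORC1 1 rose and 3 fell (11.8% called), with a median log2 change of 0.01. SESN3, a sestrin, rose from 29.4 ± 0.955 to 45.6 ± 0.693 FPKM (log2 change 0.63, adjusted p = 5.44e-07). The arginine sensor relative GATSL2 was at 10.9 ± 0.263 and 8.42 ± 1.55 FPKM (adjusted p = 0.0440) and NPRL3, of the GATOR complex that restrains mTORC1, at 17.2 ± 1.01 and 15.0 ± 0.568 FPKM (adjusted p = 0.0234), with log2 changes of 0.41 and 0.61 under TPM. The GATSL2 call was lost without any 1 of the untreated libraries (0.0844 to 0.103) or IFN-γ replicate 2 (0.0624) or 3 (0.0542), and that of NPRL3 when untreated replicates 1 or 2 (0.0706 and 0.0749) or IFN-γ replicate 2 (0.0532) were left out.

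Of 12 tested genes that regulate carriers 3 rose and 1 fell (33.3% called), with a median log2 change of 0.05. SGK1, a kinase that keeps several carriers at the surface, fell from 21.6 ± 1.05 to 11.2 ± 0.625 FPKM (log2 change -0.93, limma adjusted p = 6.52e-07; -0.13 with an adjusted p of 0.684 under TPM). TXNIP, an arrestin-like protein that lowers glucose uptake, rose from 54.6 ± 1.18 to 75.0 ± 7.99 FPKM (log2 change 0.45, adjusted p = 0.000713). ARL6IP5, a partner that restrains the glutamate carrier EAAC1, was at 50.1 ± 1.70 and 59.9 ± 7.89 FPKM (adjusted p = 0.0455), with IFN-γ replicate 4 at 71.6 FPKM, and its call was lost without any 1 untreated library (0.0657 to 0.110) or IFN-γ replicate 3 (0.0679).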

How the data were processed

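RNA-seq of 8 BE(2)-M17 libraries was used, 4 untreated and 4 with IFN-γ, grouped by the treatment in the labels. Per the labels' protocols the RNA was depleted of ribosomal RNA and the kit does not mark strand. The growth protocol names a second line, while every sample is labelled M17. The authors deposited FPKM per gene. Per the submitters' processing notes TopHat2 aligned reads to hg38 and Cuffdiff made the values. The sources used here do not state the annotation or the scaling between libraries.

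Members were found by matching symbols, and 0 columns of other samples were present. Values entered limma 3.58.1 (R 4.3.3) as log2(FPKM + 0.1) with a mean-variance trend, for genes whose mean reached 0.5 FPKM, with Benjamini-Hochberg adjustment over all 13598 genes and a threshold of 0.05. Intervals are 95%. The 3 ratios used exact permutation tests. The script was tested on simulated data. Every transporter gene is accounted for, and from each context list up to 3 called genes with the largest change and at least 1 FPKM in the higher group are named. For a list with none called, the highest gene is named. A few genes of these lists are not reported here. The members and lists were chosen with earlier results of these data known.

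Low FPKM values come in steps, 0.0492 to 0.0716 FPKM for 1 fragment per kilobase. Depth was worked out from these steps as if FPKM were scaled to the mapped total, so fragment numbers are approximate. Positions and overlaps came from GENCODE 29 and promoter windows from RefSeq (GRCh38.p14). Genes with overlapping neighbours or close pseudogenes are uncertain, since how reads were divided is not given. The alternatives were quantile normalization, median-of-ratios scaling, TPM with and without small RNA genes, a 1 FPKM filter or none, pseudocounts of 0.01 and 1, robust fitting, limma with no trend, a block for the replicate number, and the loss of each library.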

Additional observations from a re-analysis of the deposited data

Results flagged for a closer look

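Of 120 groups of 4 libraries examined, 13 held a value far from the other 3 by Dixon's criterion, where chance alone flags about 1 in 20. Among the transporter genes, SLC7A6 was 20.2 FPKM in untreated replicate 3, beside 18.4 to 18.7 FPKM in the other untreated libraries. SLC38A2 was 64.0 FPKM in untreated replicate 4, beside 59.2 to 59.7 FPKM. The ratio of SLC38A1 to SLC38A2 was 1.05 in IFN-γ replicate 4, beside 1.18 to 1.19.

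IFN-γ replicate 4 was also the highest treated library for ASS1 (410 FPKM, the others 349 to 354), ARL6IP5 (71.6, the others 55.1 to 57.4), TAP1 (381, the others 341 to 346), PGK1 (202, the others 171 to 173) and LUM (41.9, the others 28.9 to 29.9). Other values apart from their group were SLC25A22 at 9.22 FPKM in IFN-γ replicate 3, IDO1 at 0.594 FPKM in untreated replicate 1, GBP1 at 0.0397 FPKM in untreated replicate 3, PGK1 at 151 FPKM in untreated replicate 2 and CD68 at 0.801 FPKM in untreated replicate 4.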

How the results depend on the processing

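SLC7A2 and SLC7A14 were called under all 19 alternatives, SLC1A4 under 18, SLC38A6 under 15, and SLC7A1 and SLC1A3 under 11 each. Rescaling to TPM called 16 transporter genes higher and 0 lower, TPM without small RNA genes 2 higher, and no filter 1 lower. Leaving out each library in turn gave 2 to 4 called higher and 1 to 2 lower. Over all genes 1809 were called higher and 1230 lower, against 9442 and 20 under TPM, 1142 and 1767 under TPM without small RNA genes, and 1470 and 2564 under quantile normalization. TPM turned the sign of these log2 changes: SLC1A4 (0.36), SLC7A5 (0.70), SLC7A6 (0.78), SLC7A11 (0.42), SLC36A1 (0.61), SLC38A7 (0.68), SLC7A1 (0.61), SLC36A4 (0.68), SLC38A9 (0.75), SLC38A10 (0.73), SLC43A3 (0.75), PSPH (0.52), GATSL2 (0.41), NPRL3 (0.61), CTH (0.31), ARG2 (0.32), BCKDHB (0.41), TFRC (0.62), KRT19 (0.74), ASL (0.42), SLC25A15 (0.50) and SLC25A29 (0.48). The TPM sums hold SNORD3A, and genes near a log2 change of 0 move with the median of 0.79.

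The log2 ratio differences ran, with 1 library left out, from -0.315 to -0.129 (SLC7A5 to SLC3A2), -0.587 to -0.392 (SLC7A11 to SLC3A2) and -0.117 to -0.0488 (SLC38A1 to SLC38A2). Same-numbered libraries deviated together with correlations of -0.0275, 0.0790, 0.0612 and 0.0614, so the numbers were not taken to pair them. With the replicate number as a block 3 transporter genes were called higher and 2 lower, SLC1A3 having an adjusted p of 0.0860, and each paired ratio test gave an exact p of 0.125, the smallest that 4 pairs allow, at unchanged differences of -0.253, -0.506 and -0.0919. Depth limits the low genes: about 88 to 119 fragments stood behind SLC43A2, and the 19 untested genes had fewer.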

Other observations

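Other named genes of the lists were as follows. The antigen-processing gene TAP1 rose from 0.131 ± 0.0636 to 353 ± 18.5 FPKM. PSMB9, another of them, rose from a value listed at 0 in every untreated library to 41.4 ± 5.04 FPKM. All 6 tested interferon-response genes rose. GBP1, TAP1 and PSMB9 were among those that passed the filter through their treated libraries, where only a rise could be called. Of 10 reference genes PGK1 rose from 153 ± 1.68 to 179 ± 15.4 FPKM (limma adjusted p = 0.0185, and 0.0579 without untreated replicate 2) and TFRC, the transferrin receptor, fell from 67.7 ± 0.923 to 59.7 ± 1.78 FPKM (adjusted p = 0.0036), a log2 change of -0.18 that became 0.62 under TPM. Of 11 tested noradrenergic neuroblastoma markers 4 rose and 0 fell (36.4% called, beside 22.3% of all tested genes). Among them CHGA, a granule protein, went from 481 ± 11.4 to 641 ± 13.1 FPKM and PHOX2A, a noradrenergic factor, from 151 ± 2.34 to 196 ± 15.4 FPKM (adjusted p = 0.000125 and 0.000848).

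The extracellular matrix gene LUM rose from 20.3 ± 0.923 to 32.5 ± 6.29 FPKM (limma adjusted p = 0.0015), while DCN was at 140 ± 4.40 and 143 ± 22.3 FPKM (adjusted p = 0.883). CD68 was at 0.607 ± 0.130 and 0.747 ± 0.115 FPKM (adjusted p = 0.347) and KRT19 at 2.64 ± 0.218 and 2.59 ± 0.404 FPKM (adjusted p = 0.856), neither of them called.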
